A study of Mus musculus with 6 samples.

Results

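The targets of the integrated stress response examined here are *Atf4*, *Atf5*, *Ddit3*, *Trib3*, *Asns*, *Chac1*, *Sesn2*, *Psat1*, *Phgdh* and *Ppp1r15a*, and they were taken as the non-control probes that carry exactly these gene names on the array. All 10 were on the array, among 37074 gene names, with 16 of its 56605 probes. RNA came from LSK cells (lineage marker negative, Sca1 positive, cKit positive), the bone marrow (BM) fraction that holds haematopoietic stem cells (HSCs) and early progenitors, sorted from C57BL/6 mice at postnatal day 6 to 8. The control samples were *Atg5*w/w;VaviCre+ and the others *Atg5*f/f;VaviCre+ (*Atg5*f/f;*Vav*), with 3 arrays in each group. Both groups therefore carried the iCre recombinase under the Vav promoter, which is active across blood cells, and the groups differed in whether *Atg5* was flanked by loxP sites. Atg5 is needed to build autophagosomes, and the comparison asks how LSK cells of newborn mice differ when blood cells are made to lose it. No source used here says whether a sample was 1 mouse or a pool, so n, SD and SE refer to arrays and the p-values measure the spread between them.

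The integrated stress response is a signalling route shared by several kinases that phosphorylate the translation initiation factor eIF2. General protein synthesis then slows, whereas the mRNA of *Atf4* is translated more because short reading frames in its leader are bypassed. ATF4 protein, often paired with a C/EBP factor, switches on genes of amino acid synthesis, amino acid uptake and tRNA charging together with the transcription factor CHOP and with inhibitors that close the loop. HSCs are known for low protein synthesis and for strong translation of *Atf4*. Arrays measure mRNA only, so neither eIF2 phosphorylation nor ATF4 protein was measured here.

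*Atf4* and the enzymes of asparagine and serine synthesis read higher on arrays labelled *Atg5*f/f;*Vav*, and the CHOP gene, *Sesn2*, *Trib3*, *Chac1*, *Atf5* and *Ppp1r15a* did not pass the test on their representing probes. *Asns* showed the widest difference of the 10 members, 4.545-fold, followed among those that passed by *Psat1* (2.21-fold), *Atf4* (1.58-fold) and *Phgdh* (1.503-fold). Of the 10 members, 4 were higher at an adjusted p under 0.05 in limma and 0 were lower, while 18.7% of the 20777 genes tested were higher, 15.3% were lower and 34.1% passed in either direction. The members were chosen with earlier results of these data known, so these shares are no independent comparison. The median log2 difference of the members was 0.50, with a range of −0.24 to 2.18, and that of all genes tested was −0.03. Separation of every array of one group from every array of the other held for 5 of the 10 members, against 56% of all genes tested. Those 4 calls depend on control replicates 1 and 2. Without control replicate 1, or without control replicate 2, limma called 0 members, with 4 members at an unadjusted p under 0.05 each time. The 4 then had log2 differences of 0.55 to 2.19 and adjusted p from limma of 0.0675 to 0.0803. Calls fell over the whole series as well, from 11024 probes to 330 without control replicate 1 and 251 without control replicate 2. With quantile normalisation 2 members passed in limma, *Asns* and *Psat1*.

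**Figure D1:**
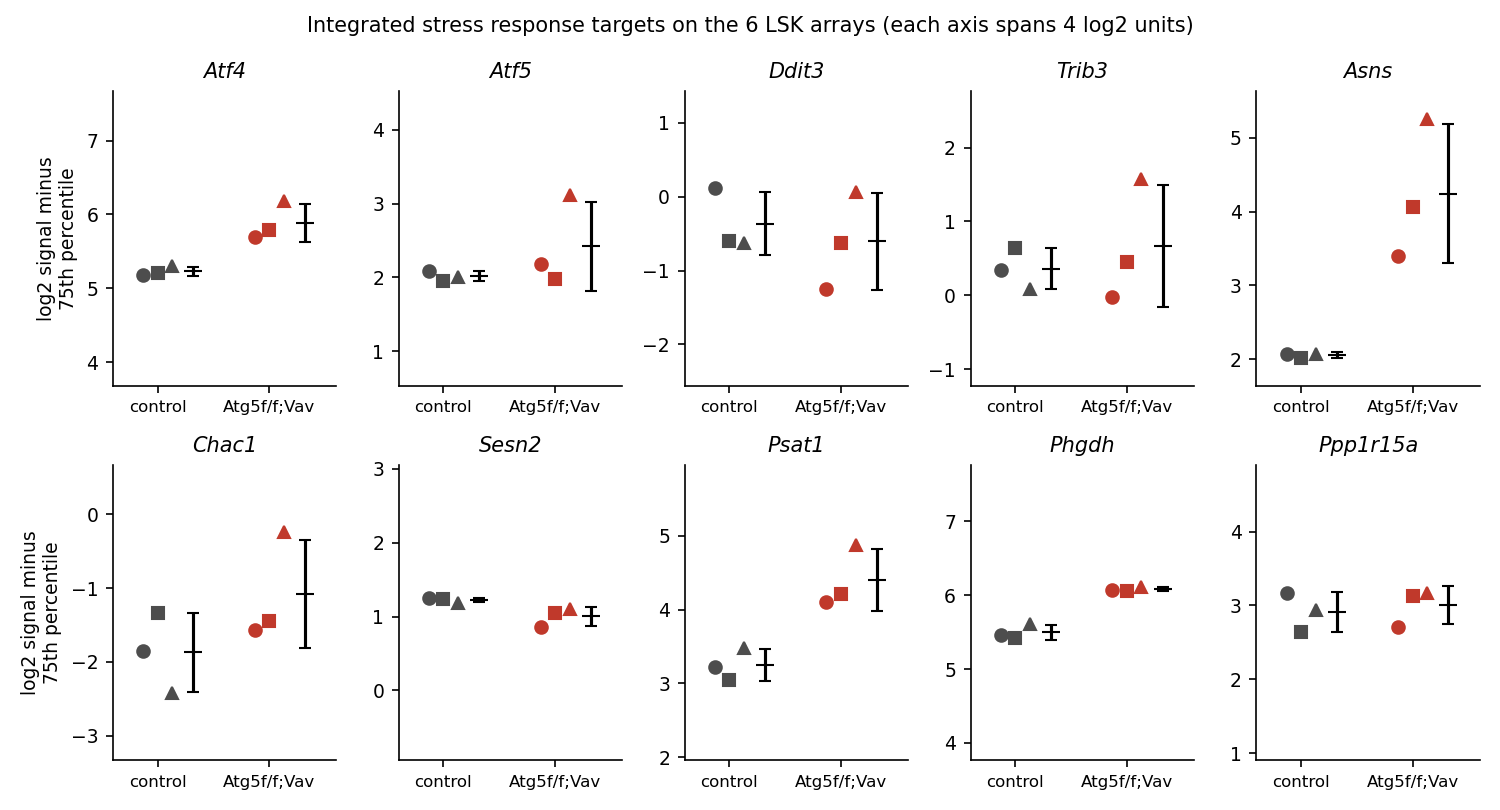
Log2 signal minus the array's 75th percentile (y axis) of each of the 10 members on the 3 control arrays (grey) and the 3 arrays labelled *Atg5*f/f;*Vav* (red), with circles, squares and triangles for replicates 1, 2 and 3 and bars for the mean ± SD. *Asns* runs from 2.02 to 2.08 in control and from 3.40 to 5.26 in the other group, whereas *Ddit3*, *Trib3*, *Chac1*, *Atf5* and *Ppp1r15a* overlap between groups.

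Levels are given as log2 of the scanner's intensity minus the array's own 75th percentile, on which 0 is the 75th percentile, and differences as arrays labelled *Atg5*f/f;*Vav* minus control. These levels are not compared between probes. Intensities at the 75th percentile lay between 651.7 and 746.2 in control and between 620.3 and 881.4 in the other group, 57.57% to 58.14% and 51.58% to 54.78% of probes were well above background, and no spot was saturated. All arrays shared 1 slide and 1 scan, and each group filled a row of its own on the slide, so that row and genotype cannot be told apart. The probe of the targeted gene read higher in the group labelled as lacking it: *Atg5*, measured at chr10:44083997-44084056 of mm9, read 1.10, 0.93 and 1.06 in control and 1.46, 1.51 and 1.74 in the other group, a difference of 0.54 (SE 0.12, adjusted p = 0.0209, limma). It was not settled here if the floxed exon holds that probe, and a probe outside that exon would not check the labels. Every direction given rests on the labels. Another scaling shifted all values at once: with the 75th percentile taken over probes detected on all arrays, the median over genes moved from −0.03 to −0.24, the split of probes called in limma moved from 5540 higher and 5484 lower to 3371 higher and 10088 lower, the median of the members became 0.29, and the same 4 members still passed as higher.

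Of the 16 member probes, 15 were well above background on all 6 arrays and were tested, and the remaining one, for a *Psat1* transcript, was well above background on none. A gene was represented by its brightest probe. *Atf4*, *Atf5*, *Ddit3*, *Asns* and *Psat1* each had a further tested probe. The further probes of 4 of these genes are printed here, since they are second readings of 3 members called higher and of *Ddit3*, whose probes disagreed. They start at transcript base 832 for *Atf4*, 1396 for *Asns*, 750 for *Psat1* and 288 for *Ddit3*, whose brighter probe is placed on another transcript. The sequences are those of the scanner files, with no part in capitals, and whether a probe falls in coding or untranslated sequence was not determined here.
Atf4: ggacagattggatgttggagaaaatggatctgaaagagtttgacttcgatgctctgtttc
Asns: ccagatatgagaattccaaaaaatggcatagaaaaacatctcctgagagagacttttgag
Psat1: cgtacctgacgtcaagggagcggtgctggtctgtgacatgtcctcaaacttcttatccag
Ddit3: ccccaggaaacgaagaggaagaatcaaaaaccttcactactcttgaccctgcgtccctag

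*Atf4* encodes the basic leucine zipper (bZIP) factor at the centre of the response. Its brightest probe (chr15:80087902-80087961 of mm9, plus strand) read 5.18, 5.21 and 5.29 on control arrays 1, 2 and 3, and 5.69, 5.79 and 6.17 on arrays 1, 2 and 3 labelled *Atg5*f/f;*Vav*. The groups did not overlap, and the control arrays were the tighter. The difference was 0.66 (SE 0.15, 95% interval 0.30 to 1.01, adjusted p = 0.0209, limma). The second probe printed above (chr15:80087079-80087138) read 0.38, 0.06 and 0.40 in control and 1.09, 0.99 and 1.48 in the other group, a difference of 0.91 (SE 0.17, adjusted p = 0.0166, limma). Both *Atf4* probes thus gave groups without overlap, as did 56% of all genes tested by their representing probes. The adjusted p of *Atf4* was 0.0834 with quantile normalisation, where the difference was 0.30, and 0.055 with no filter on dim probes, both in limma.

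*Atf5* encodes a related bZIP factor that is likewise controlled by upstream reading frames and is known from the mitochondrial unfolded protein response. Its probe at chr7:52067627-52067686 (minus strand) read 2.09, 1.95 and 2.01 in control and 2.18, 1.97 and 3.11 in the other group. A single array, *Atg5*f/f;*Vav* replicate 3, stood above the rest, and the other 5 arrays overlapped. The difference of 0.40 (SE 0.28) had a 95% interval of −0.27 to 1.08 and did not pass (adjusted p = 0.293, limma). Without that array it was 0.06. A second *Atf5* probe gave 0.41 (SE 0.26, adjusted p = 0.24, limma).

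*Ddit3* encodes CHOP, a bZIP factor downstream of ATF4 that is known for promoting cell death under lasting stress, and its probes disagreed. The brighter probe, designed on an Ensembl transcript of the gene (chr10:126731579-126731638), read 0.12, −0.60 and −0.63 in control and −1.25, −0.62 and 0.06 in the other group. These groups overlapped, with a difference of −0.24 (SE 0.36, 95% interval −1.08 to 0.61, adjusted p = 0.625, limma). The probe printed above, designed on the RefSeq transcript, spans an exon junction between 126732518 and 126732821 of chromosome 10. It read −1.73, −1.88 and −1.97 in control and −1.50, −1.13 and −0.45 in the other group, so that its groups did not overlap. Its difference was 0.84 (SE 0.26, 95% interval 0.22 to 1.45, adjusted p = 0.0449, limma). By the rule that the brightest probe stands for a gene *Ddit3* was not called, and with the mean of both probes its difference was 0.30 (adjusted p = 0.464, limma). Which of the probes follows the CHOP mRNA in these cells was not tested.

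The enzymes of amino acid synthesis gave the clearest separation among the members. *Asns* encodes asparagine synthetase, which makes asparagine from aspartate and glutamine and is a classical target of ATF4. Its probe at chr6:7625171-7625228 (minus strand) read 2.08, 2.02 and 2.08 in control and 3.40, 4.06 and 5.26 in the other group. The control arrays were nearly level, whereas the other arrays spread widely and all stood above them. The difference was 2.18 (SE 0.42, 95% interval 1.18 to 3.19, adjusted p = 0.0168, limma). The second probe (chr6:7626110-7626255) read −1.77, −2.21 and −1.87 in control and −0.48, 0.05 and 1.44 in the other group, a difference of 2.28 (SE 0.46, adjusted p = 0.0173, limma). On the linear scale the first probe ran from 4.05 to 4.22 times the 75th percentile in control and reached 10.6, 16.7 and 38.3 times in the other group.

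*Phgdh* and *Psat1* encode successive enzymes of the pathway that makes serine from a glycolytic intermediate. *Phgdh*, the first enzyme, had a probe at chr3:98117098-98117157 (minus strand) that read 5.46, 5.42 and 5.61 in control and 6.07, 6.06 and 6.12 in the other group. Here the arrays labelled *Atg5*f/f;*Vav* were the tighter group. The difference was 0.59 (SE 0.11, 95% interval 0.34 to 0.84, adjusted p = 0.016, limma), and with quantile normalisation it was 0.23 (adjusted p = 0.105, limma). *Psat1*, the aminotransferase that follows, had a probe at chr19:15979622-15979681 (minus strand) that read 3.23, 3.05 and 3.47 in control and 4.10, 4.22 and 4.87 in the other group. The difference was 1.15 (SE 0.23, 95% interval 0.61 to 1.69, adjusted p = 0.0171, limma). The second *Psat1* probe (chr19:15991586-15991645) read −1.12, −1.07 and −1.12 against −0.56, −0.23 and 0.29, a difference of 0.94 (SE 0.21, adjusted p = 0.0208, limma). For each of these 3 genes the lowest of the *Atg5*f/f;*Vav* arrays lay above the highest control array. Groups without overlap, in either direction, were found for 56% of all genes tested.

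The members that act as brakes or effectors did not pass. *Trib3* encodes a pseudokinase, induced by ATF4 and CHOP, that restrains ATF4. Its probe at chr2:152163161-152163220 (minus strand) read 0.35, 0.65 and 0.09 in control and −0.03, 0.46 and 1.57 in the other group. Replicate 3 of the latter was highest and the remaining arrays were interleaved. The difference was 0.31 (SE 0.39, 95% interval −0.62 to 1.24, adjusted p = 0.561, limma), and without that array it was −0.15. *Chac1* encodes an enzyme that breaks down glutathione. Its probe at chr2:119179990-119180049 (plus strand) read −1.85, −1.34 and −2.42 in control and −1.57, −1.45 and −0.24 in the other group, with the same array on top. The difference was 0.78 (SE 0.41, 95% interval −0.19 to 1.76, adjusted p = 0.17, limma), and it was 0.36 without that array.

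*Ppp1r15a* encodes GADD34, which brings protein phosphatase to eIF2 and so ends the response. Its probe at chr7:52778320-52778379 (minus strand) read 3.17, 2.64 and 2.93 in control and 2.71, 3.12 and 3.17 in the other group, with complete overlap. The difference was 0.09 (SE 0.19, 95% interval −0.35 to 0.54, adjusted p = 0.724, limma), and its sign turned with quantile normalisation (−0.17) and with the percentile over detected probes (−0.12). *Sesn2* encodes sestrin 2, a leucine sensor that lowers mTORC1 activity and is also a target of p53. Its probe at chr4:132048858-132048917 (minus strand) read 1.25, 1.23 and 1.19 in control and 0.86, 1.05 and 1.10 in the other group. Every array labelled *Atg5*f/f;*Vav* lay below every control array, opposite in direction to the enzymes. That difference of −0.22 (SE 0.11, 95% interval −0.48 to 0.04) did not pass (adjusted p = 0.159, limma). With the percentile over detected probes, which lowers all values of this group, it was −0.43 and passed (adjusted p = 0.0237, limma).

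**Figure D2:**
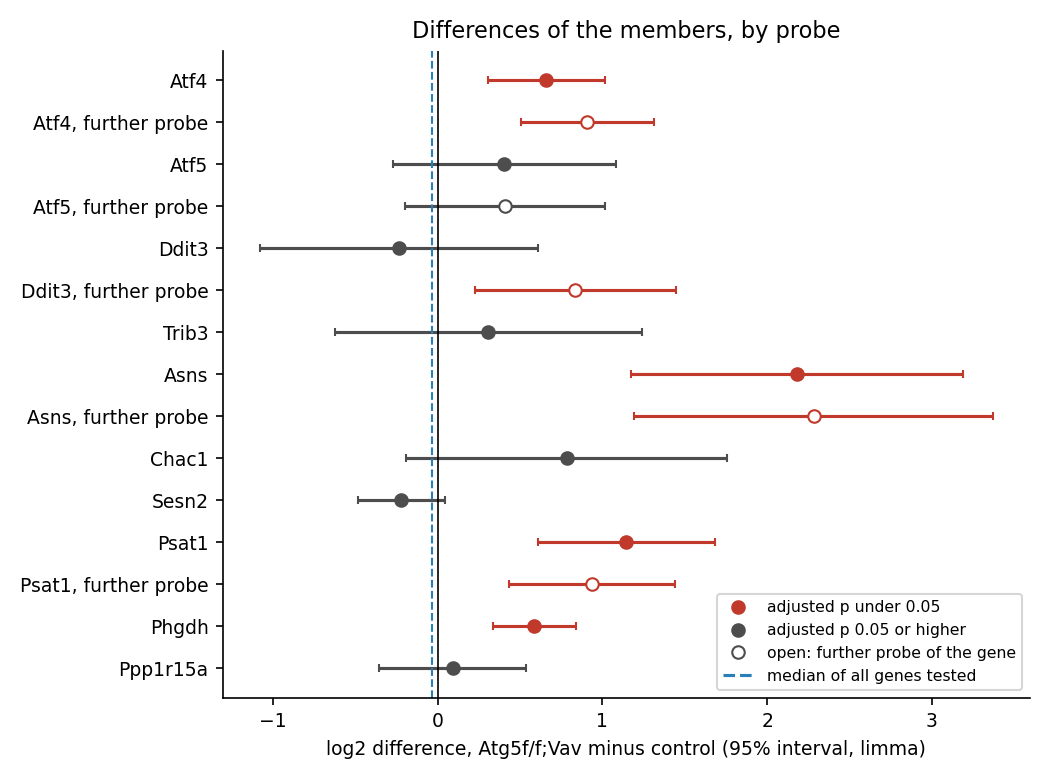
Log2 difference, arrays labelled *Atg5*f/f;*Vav* minus control (x axis), of each of the 15 tested member probes with its 95% interval from limma; filled points are the brightest probe of a gene, open points further probes, red those at an adjusted p under 0.05, and the dashed line the median of all genes tested (−0.03). Both probes of *Atf4*, *Asns* and *Psat1* lie right of 0 with their intervals, whereas the probes of *Ddit3* fall on opposite sides of 0.

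The arrays of the *Atg5*f/f;*Vav* group were not alike in these genes. Replicate 3 of this group was the highest of all 6 arrays for 8 of the 10 members, the others being *Ddit3* and *Sesn2*, which were highest on control replicate 1. Across all genes tested, the same array was the highest for 34.2% and the lowest for 29%, each the largest share of the 6 arrays. It was the lowest for 0 of the members. *Asns*, *Atf5*, *Trib3* and *Chac1* each stood apart on it from replicates 1 and 2, as the values above show. Without it the median difference of the members was 0.21, and *Atf4* (0.52), *Asns* (1.68), *Psat1* (0.91) and *Phgdh* (0.57) still passed in limma.

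Upstream of the members, *Eif2ak2* was called higher among the 4 eIF2 kinase genes and the other 3 were not called. *Eif2ak2* encodes PKR, the kinase that senses double-stranded RNA and is induced by interferon, and it read 0.75, 0.89 and 0.84 in control and 1.54, 1.87 and 1.71 in the other group. Its difference was 0.88 (SE 0.12, adjusted p = 0.013, limma). *Eif2ak1*, the haem-sensing kinase, differed by 0.20 (SE 0.16, adjusted p = 0.356, limma). *Eif2ak3*, which encodes PERK of the endoplasmic reticulum, differed by −0.03 (SE 0.11, adjusted p = 0.83, limma). *Eif2ak4*, which encodes GCN2, the sensor of uncharged tRNA, differed by −0.14 (SE 0.11, adjusted p = 0.345, limma), whereas its activator *Gcn1l1* differed by 0.54 (SE 0.14, adjusted p = 0.0284, limma). The counts of this list and of those below stand beside 18.7% of all genes tested called higher and 15.3% called lower. The lists were chosen with earlier results of these data known, so an excess over those shares is no independent support. Of the 8 kinases and regulators listed, 2 were higher, 0 lower and 6 not called, with a median of 0.16. By contrast all 10 genes listed for eIF2, its exchange factor eIF2B and its phosphatase were called higher, with a median of 0.77. That list leaves out the phosphatase partner *Ppp1r15a*, counted among the members, which was not called (0.09, adjusted p = 0.724, limma). The widest of the 10 were *Eif2b3* (1.17), *Eif2s2* (0.97) and *Eif2s1* (0.90), of which the last encodes the subunit that the kinases phosphorylate. With quantile normalisation 7 of the 10 passed.

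Other genes of amino acid supply moved with *Asns*, *Psat1* and *Phgdh*. Of 10 further enzymes of amino acid and one-carbon synthesis, 8 were tested, 7 were called higher and 0 lower, with a median of 1.01. Among the 7, *Pycr1* was dim, well above background on 1 control array and 3 of the other group. It met the filter through the group in which it was high, so its call is no support for the list. With a filter on all arrays 6 of these enzymes were called. *Mthfd2*, a mitochondrial folate enzyme, read −0.73, −0.91 and −0.84 in control and 0.39, 0.50 and 1.42 in the other group, a difference of 1.59 (SE 0.27, adjusted p = 0.0153, limma). *Shmt2*, which splits serine in mitochondria, differed by 1.09, and the aspartate aminotransferase *Got1* by 1.07. *Aldh1l2* was well above background on no array, and *Cth* on 1 array of the 6, in the *Atg5*f/f;*Vav* group. A list of 12 cytosolic tRNA synthetases was counted, and other synthetases were not examined. All 12 listed were called higher, with a median of 0.98, led by *Wars* (1.24), *Mars* (1.08) and *Cars* (1.06). In limma 10 of them passed with quantile normalisation and 9 with no filter on dim probes. Among 9 amino acid transporters, 8 were tested, 3 were called higher and 0 lower, with a median of 0.37. These were *Slc7a3* (1.04), *Slc3a2* (0.78), the shared heavy chain of several exchangers, and *Slc7a1* (0.73). *Slc7a3* was dim, well above background on 2 control arrays and 3 of the other group (adjusted p = 0.0448, limma). With a filter on all arrays 2 transporters were called. *Slc7a11*, the cystine transporter, was well above background on 0 control arrays and on 2 of the other group, and was not tested. It read −5.66, −4.41 and −2.75 on the latter, with the highest value on replicate 3.

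The remaining neighbours of the response gave mixed directions. Of 5 partner and stress transcription factors, 4 were tested and 2 called higher. *Nupr1*, a small chromatin protein induced by stress, read −2.72, −2.31 and −3.05 in control and −1.61, −0.60 and 0.48 in the other group, a difference of 2.11 (SE 0.50, adjusted p = 0.0225, limma). *Cebpb*, a partner of ATF4, differed by 0.62. *Atf3* was well above background on 0 control arrays and 1 of the others. Of 10 other targets of ATF4 or CHOP, 9 were tested, 2 called higher and 1 lower, with a median of 0.04 that does not depend on whether *Stc2* is put at its fitted value or its bound. *Stc2* was well above background on 0 control arrays and 3 of the others, and at least 1.56-fold higher (adjusted p = 0.0229, limma). Because it met the filter only through the group in which it was high, its call is no support for the list, which leaves 1 gene called higher. The translation repressor *Eif4ebp1* was higher by 0.76 and *Vegfa* was lower, at −0.41. *Fgf21*, a well known ATF4 target outside blood, was well above background on no array.

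The ATF6 and XBP1 arms of the unfolded protein response, which run beside PERK in the endoplasmic reticulum, had 8 of 20 genes called higher and 1 lower, with a median of 0.35. *Sdf2l1* (1.31), *Creld2* (0.82) and the chaperone *Hspa5* (0.79) were higher, and *Ern1*, which encodes the sensor IRE1, was lower, at −0.76. The paralogues of the members went both ways, with 2 of 6 higher and 2 lower. *Trib2*, the relative of *Trib3* that is known for driving the degradation of C/EBP alpha, read −4.25, −3.97 and −3.59 in control and −1.75, −0.64 and −0.47 in the other group. The difference of 2.98 (SE 0.35, adjusted p = 0.00921, limma) was wider than that of any member. *Ppp1r15b*, the constitutive partner of the eIF2 phosphatase that is also in the eIF2 list, was higher by 0.70, while *Sesn3* (−0.90) and *Sesn1* (−0.81) were lower, as *Sesn2* was in value.

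Several of these genes also answer to other signals, and lists for those were counted in the same fit. Among 17 immediate early genes, which rise with cell handling and growth factor signals, 16 were tested, 0 were higher and 2 lower, *Btg2* (−0.92) and *Nr4a1* (−0.84), with a median of −0.08. Of 11 p53 targets, 10 were tested, with 3 higher, 2 lower and a median of 0.003. *Cdkn1a* (1.14), *Bax* (0.93) and *Aen* (0.89) were higher, and *Trp53inp1* (−0.86) and *Sesn1* were lower. All 10 proliferation genes were called higher, with a median of 0.87, led by *Plk1* (1.17), *Aurkb* (1.09) and *Cdk1* (0.94). Their summed linear signal was 91.5 to 120.4 times the 75th percentile in control and 154.6 to 213.2 times in the other group, so it was higher in the same arrays as the synthetases, the eIF2 genes and the 4 members called, and its part in those results was not tested. With quantile normalisation 6 of the 10 proliferation genes passed in limma. With no filter on dim probes 5 of them passed, along with 6 of the 10 eIF2 genes, 1 of the kinases and regulators, 1 of the partner factors and 0 of the transporters and of the other targets of ATF4 or CHOP. Without control replicate 1 or 2, limma called no gene of any of these lists, except 1 paralogue without control replicate 1.

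**Figure D3:**
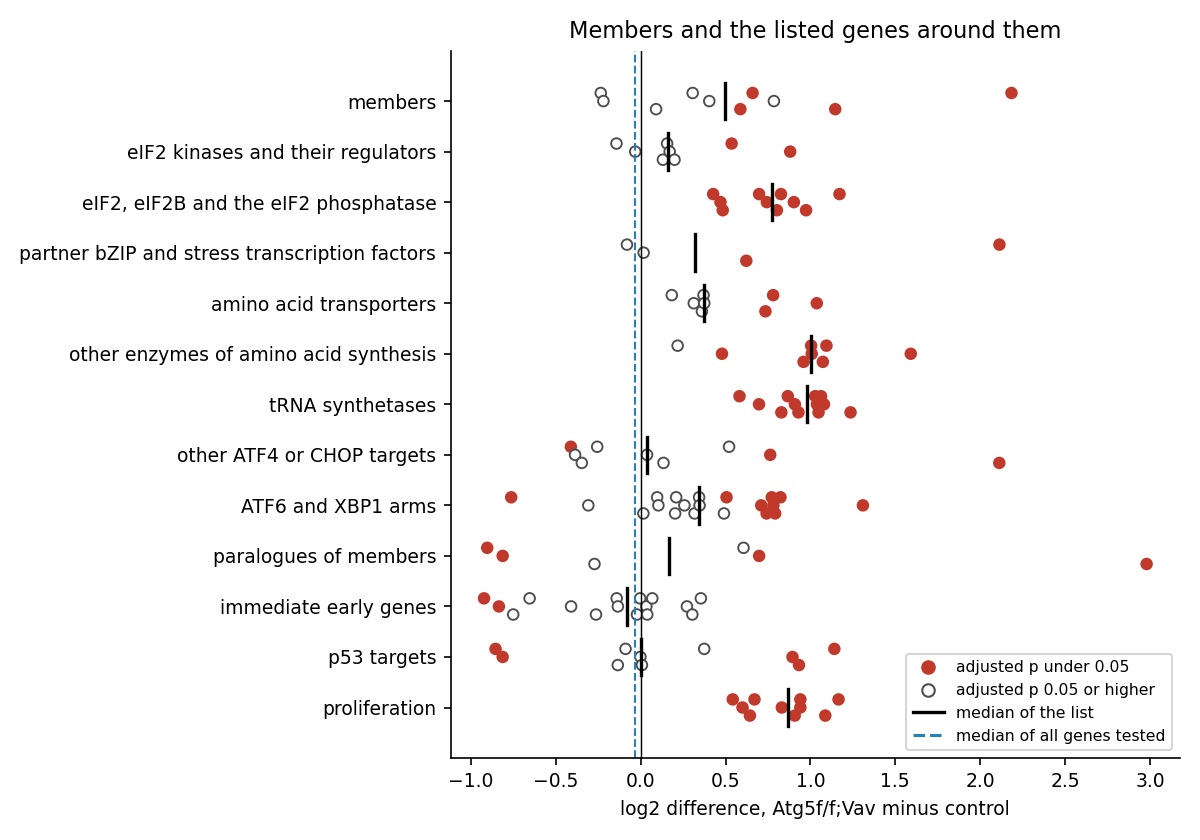
Log2 difference, arrays labelled *Atg5*f/f;*Vav* minus control (x axis), of each tested gene of the members and of 12 lists around them (y axis), with red points at an adjusted p under 0.05 in limma, open points above it, black bars for list medians and a dashed line for the median of all genes tested. Every tested point of the eIF2, tRNA synthetase and proliferation lists is red and right of 0, whereas the members and the kinases hold both red and open points; *Stc2* is drawn at its fitted value, although its control arrays give a bound only.

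Markers of the sorted population and of other blood cells differed as well. Of the genes of the LSK gate, *Ly6a*, which encodes Sca1, was higher by 1.57 (adjusted p = 0.00622, limma). *Ptprc* was lower (−0.34) at the edge of the threshold (adjusted p = 0.05 when rounded, limma). *Kit* (−0.38, adjusted p = 0.0563, limma), *Cd34* (−0.27) and *Flt3* (−0.87) did not pass, and all 5 genes of the gate were detected on every array. Those called lower in limma numbered 0 with the deposited values and 3 with quantile normalisation. Among 7 erythroid markers 3 were higher, *Car1* (3.80), *Klf1* (2.95) and *Epor* (2.08), and 3 lower, *Hbb-b1* (−1.92), *Hba-a1* (−2.26) and *Slc4a1* (−2.29). The summed erythroid signal was 220 to 501 times the 75th percentile in control and 74 to 112.8 times in the other group. *Hba-a1* alone read 8.90, 8.84 and 7.72 in control and 6.00, 6.42 and 6.28 in the other group. As the strongest signal of the list it makes up most of that sum, which therefore does not follow the 3 markers called higher. *Klf1* read 1.93 on *Atg5*f/f;*Vav* replicate 3, against 0.85 on replicate 2 and −0.21 on replicate 1, the order seen for *Asns*. Of 7 myeloid markers, 2 were higher and 2 lower, with a summed signal of 197.1 to 286.7 and 236.4 to 275.7. The stromal list had 3 of 6 tested genes lower, *Sparc*, *Col1a2* and *Col1a1*, a summed signal of 10.2 to 40.7 in control and 6.84 to 9.61 in the other group, and its marker *Col3a1* well above background on no array. *Col1a1* was well above background in the control group only, so that it met the filter through that group alone. Control replicate 1 stood apart from the other control arrays, with *Col1a2* at −0.90 against 3.47 and 2.90 and *Sparc* at 0.63 against 3.36 and 3.15. The stromal calls fell to 0 in limma without control replicate 2 or 3 or without *Atg5*f/f;*Vav* replicate 2 or 3. B cell markers gave 1 of 4 higher, T cell markers 0 of 2 either way, megakaryocyte markers 1 higher and 1 lower of 3, and the endothelial list 1 lower of 1, with *Cd8a* and *Cdh5* well above background on no array. The B cell call, *Cd79a*, was dim, well above background on 1 control array and 3 of the other group. With a filter on all arrays the B cell and endothelial lists had 0 calls. Without control replicate 1 or 2 the erythroid, myeloid, B cell, megakaryocyte and endothelial lists had 0 calls in limma, whereas 1 gene of the LSK gate was still called higher. In bulk RNA fewer cells of a type and less RNA per cell cannot be told apart, and the part of cell composition in the member results was not tested.

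Promoters were read because *Asns* and its fellow members are known targets of a shared element. RefSeq windows of 300 bases, 250 before and 50 after the start, were matched for all 10 members (GRCm38.p6), and searched on both strands for the letters of the C/EBP-ATF response element, TGATGNAA or its reverse complement TTNCATCA. They occurred in 3 of 12 member windows, those of *Asns*, *Chac1* and *Trib3*, and in 3.97% of all 32851 windows. The match in *Asns* has its first base 23 bases before the start, that in *Chac1* 193 bases before, and that in *Trib3* lies 14 bases after the start. The windows of *Atf4*, *Psat1* and *Phgdh*, the other members called higher, do not hold these letters, which says nothing beyond the window. The 250 bases before the start of *Asns* (chr6:7693210-7693459, minus strand) and *Chac1* (chr2:119350992-119351241, plus strand) are shown because they hold the match of the member with the widest difference and that of a member that did not pass, with the matched letters in capitals.
Asns: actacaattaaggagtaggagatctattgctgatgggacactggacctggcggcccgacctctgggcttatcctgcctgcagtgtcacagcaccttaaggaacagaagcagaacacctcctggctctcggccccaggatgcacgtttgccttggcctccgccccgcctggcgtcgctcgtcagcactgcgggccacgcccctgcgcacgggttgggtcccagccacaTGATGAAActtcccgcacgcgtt
Chac1: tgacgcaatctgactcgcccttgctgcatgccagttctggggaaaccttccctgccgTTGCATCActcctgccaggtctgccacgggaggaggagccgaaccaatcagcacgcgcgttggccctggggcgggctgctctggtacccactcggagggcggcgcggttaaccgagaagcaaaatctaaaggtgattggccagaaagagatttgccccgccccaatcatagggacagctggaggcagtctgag

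The genes whose levels ran closest to those of *Atf4* over the 6 arrays were found by the mean absolute difference between log2 signals, each gene centred on its own mean, over 18372 genes detected on all arrays. *Ndufa5*, a subunit of respiratory complex I, was closest at 0.0104, with *Prkar2b*, a regulatory subunit of protein kinase A, at 0.0133 and the transcript ENSMUST00000196289 at 0.017. Among the members *Phgdh* came nearest to *Atf4* at 0.105, with 1476 genes closer to *Atf4* than it was. *Atf5* followed at 0.219 and *Psat1* at 0.243, and *Asns* was farthest at 0.763, its range over the arrays being wider. The measure describes 6 arrays of 2 groups, and any gene higher by a like amount in the same arrays scores well on it.

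**Figure D4:**
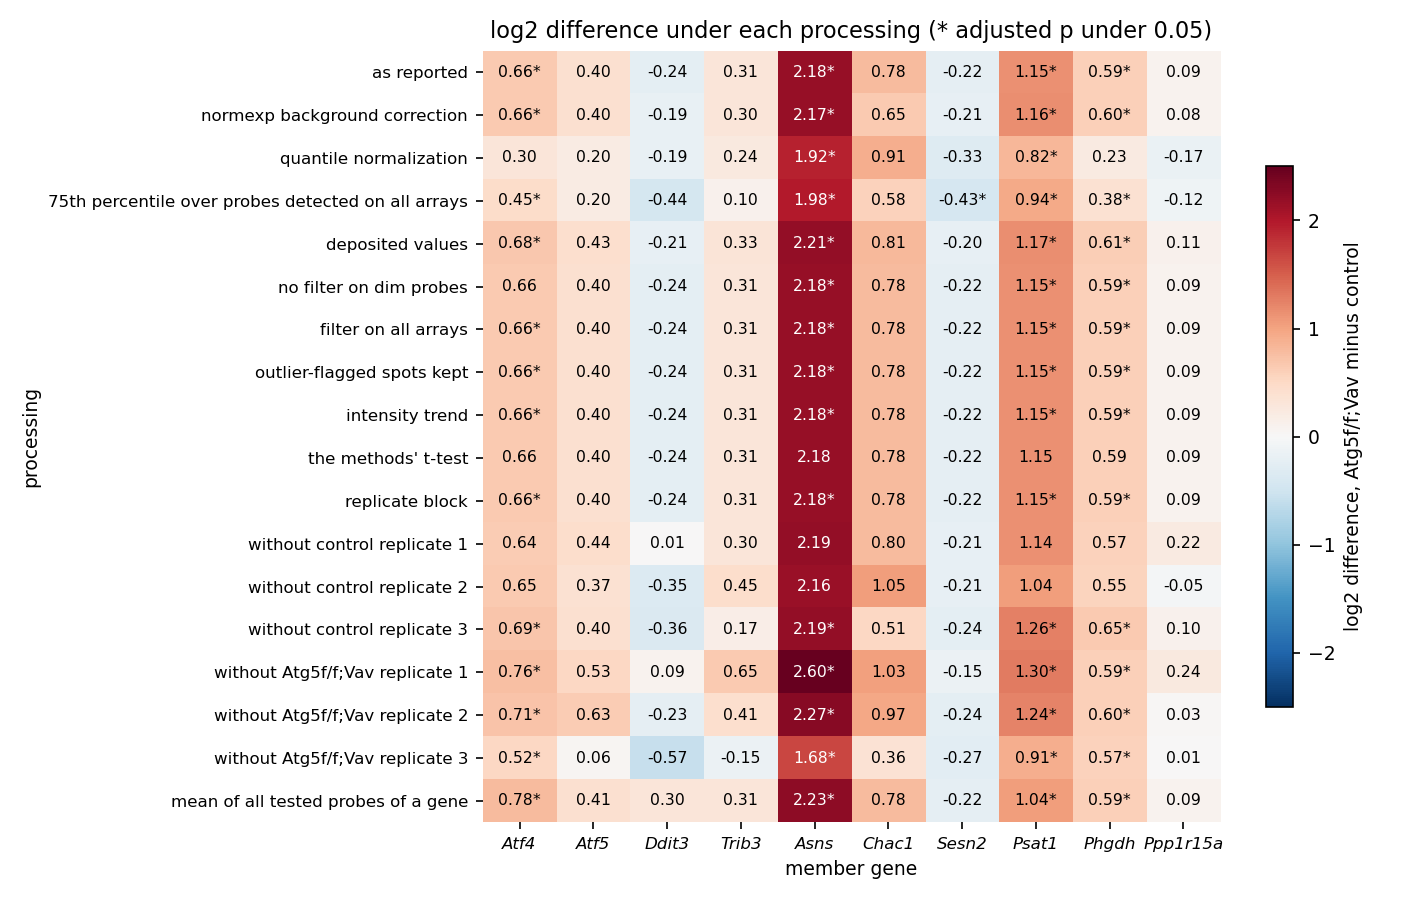
Log2 difference, arrays labelled *Atg5*f/f;*Vav* minus control (colour and number), of each of the 10 members (x axis) as reported and under 17 alternative processings (y axis), with an asterisk at an adjusted p under 0.05. *Asns* stays at 1.68 or higher and *Psat1* at 0.82 or higher in each of them, whereas the signs of *Ddit3*, *Trib3* and *Ppp1r15a* turn in some.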

How the data were processed

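Total RNA of LSK cells was labelled with Cy3 and hybridised to 1-colour Agilent arrays with 60-mer probes designed on mm9, with 3 control and 3 *Atg5*f/f;*Vav* samples. The authors deposited scanner files from Agilent Feature Extraction (version 12.0.3.1), whose intensity had background subtracted and spatial trends removed, and other columns of the deposited files hold flags for background, outliers, saturation and control spots. The authors also deposited a table of signal, which is intensity over the 75th percentile of all 62976 spots of that array (checked, spread at most 0.000267%).

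For the values given here, intensity was log2-transformed and scaled to the 75th percentile of the 59305 non-control spots. Outlier spots (64 to 81 per array) were dropped and spots of a probe averaged. Testing covered the 32073 probes well above background on 3 or more of the 6 arrays, using lmFit and eBayes of limma (version 3.58.1, R version 4.3.3), 2-sided, with Benjamini-Hochberg adjustment over all of them and a threshold of 0.05. An exact permutation test of 3 against 3 arrays cannot go below a p of 0.1. Arrays give no depth, so precision is limited by how many there are. The step was tested on simulated data.

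Members and eIF2 kinases are named in full, with at most 3 called genes per direction of each pathway list and the 3 genes most like *Atf4*. Marker genes, the dim *Pycr1* and genes too dim to test are named beside this rule, after their values were seen. The members and lists were chosen with earlier results of these data known. Groups follow the sample labels. Alternatives covered background correction, normalisation, the deposited signal, filters, a trend with intensity, a block for the replicate number, the t-test of the methods, leaving out each array and averaging a gene's probes.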

Additional observations from a re-analysis of the deposited data

How the results depend on the processing

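The 4 members called higher remained called in limma with normexp background correction, the percentile over detected probes, the deposited values, a filter on all arrays, outlier spots kept, an intensity trend, the mean of a gene's probes, and with control replicate 3 or any *Atg5*f/f;*Vav* array left out. They numbered 2 with quantile normalisation, 3 without a filter on dim probes (4538 probes called in place of 11024), and 0 by the methods' t-test, which after Benjamini-Hochberg adjustment called 0 probes, with 13541 at an unadjusted p under 0.05, among them 5 members. With each array left out in turn, members called higher ran from 0 to 4 and probes called from 251 to 10304, with 330 probes without control replicate 1 and 251 without control replicate 2. Members called lower numbered 0, and 1 with the percentile over detected probes. Signs turned for *Ppp1r15a* (−0.17 with quantile normalisation, −0.12 with the percentile over detected probes, −0.047 to 0.24 with arrays left out), *Ddit3* (0.30 with the mean of its probes, −0.57 to 0.087 with arrays left out) and *Trib3* (−0.15 to 0.65 with arrays left out). None of these passed the test, and the cause was not tested. Deviations of same-numbered arrays correlated at −0.065, 0.19 and 0.11, and those of differently numbered arrays at −0.30 to 0.13. With 3 arrays in each group these values cannot show whether the numbers pair the arrays. With the replicate number as a block 10172 probes and 4 members passed. Dim probes, such as those of *Atf3* and *Slc7a11*, could not be tested.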
